A study of Caenorhabditis elegans with 2 samples.

Results

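The HLH-30 peaks on the X chromosome of Caenorhabditis elegans numbered 418 in the authors' optimal list, whose other 1541 peaks are on the 5 autosomes. It is the list left after peaks had been filtered by their agreement between replicates (irreproducible discovery rate, IDR). The 418 were selected by chromosome alone and are set here against the 1541. Chromatin was immunoprecipitated with an antibody to GFP from late embryos of hermaphrodites of strain OP433, genotype unc-119(tm4063) III; wgIs433, in which the C terminus of HLH-30 is fused to GFP-FLAG, and the DNA was sequenced (ChIP-seq). There is a single group with 2 biological replicates, whole organisms were used, and the control experiment that the labels name is not analysed here. A signal therefore belongs to a mixture of all embryonic cell types and to the tagged transgene product.

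HLH-30 is the worm member of the MITF/TFE family of basic helix-loop-helix leucine zipper factors, whose best known mammalian relative is TFEB. These factors bind E-boxes, above all the palindrome CACGTG, and are known for activating genes of autophagy and the lysosome, in worms during fasting and in long-lived mutants. Hermaphrodites carry a pair of X chromosomes and males a single one. A dosage compensation complex binds along both X chromosomes of hermaphrodites and lowers their transcription. That complex is recruited at sites on X that hold variants of a motif called MEX, whose conserved core includes GCGCAGG.

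The windows below reach 50 bp to either side of 7 X summits and are shown because they hold the E-boxes on which the motif counts rest. They are ce11 plus-strand sequences from RefSeq's WBcel235 assembly, each named by the nearest protein-coding start, and capitals mark CACGTG or CATGTG on either strand (CATGTG reads CACATG on the other strand).
dct-1 chrX:7951679-7951779: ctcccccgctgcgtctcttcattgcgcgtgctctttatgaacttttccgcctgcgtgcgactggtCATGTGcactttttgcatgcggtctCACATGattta
epg-7 chrX:7334521-7334621: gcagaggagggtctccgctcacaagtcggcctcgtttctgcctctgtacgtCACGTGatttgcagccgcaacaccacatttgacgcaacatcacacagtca
C18B12.4 chrX:15040868-15040968: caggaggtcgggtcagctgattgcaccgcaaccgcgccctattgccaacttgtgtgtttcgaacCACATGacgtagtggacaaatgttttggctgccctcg
F09A5.3 chrX:13145298-13145398: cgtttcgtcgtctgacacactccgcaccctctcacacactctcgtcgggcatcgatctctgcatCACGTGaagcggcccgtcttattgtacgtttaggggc
C33A11.2 chrX:15365407-15365507: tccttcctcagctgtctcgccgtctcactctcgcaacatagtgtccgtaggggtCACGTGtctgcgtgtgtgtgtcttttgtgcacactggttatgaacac
mdl-1 chrX:6742198-6742298: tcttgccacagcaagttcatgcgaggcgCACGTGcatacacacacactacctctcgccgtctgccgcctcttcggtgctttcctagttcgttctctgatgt
adt-2 chrX:7590179-7590279: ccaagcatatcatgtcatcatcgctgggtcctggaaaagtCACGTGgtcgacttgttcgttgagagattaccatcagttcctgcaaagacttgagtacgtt
The first 5 belong to peaks among the strongest on X, the mdl-1 window to the largest group of neighbouring summits, and the adt-2 window to a coding exon. CACGTG is present in 5 of these 7 windows, and the dct-1 and C18B12.4 windows hold CATGTG without it. The windows were picked for their E-boxes, so that count says nothing about how frequent E-boxes are. The C30E1.4 and epn-1 peaks, also among the strongest on X (signals 669 and 471), hold neither word and are not shown.

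The next 6 windows are shown because they are the X summit windows that hold a shared word of 12 letters, CCCTGCGCGATA, which contains the MEX core on its other strand. Capitals mark that word, which reads TATCGCGCAGGG where it lies on the minus strand.
nspc-17 chrX:14525870-14525970: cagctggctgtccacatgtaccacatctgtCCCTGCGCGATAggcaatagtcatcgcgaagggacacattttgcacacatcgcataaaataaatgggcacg
F20B6.9 chrX:4209228-4209328: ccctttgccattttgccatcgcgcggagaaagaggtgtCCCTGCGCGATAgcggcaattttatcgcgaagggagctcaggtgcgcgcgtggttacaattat
cest-16 chrX:6296501-6296601: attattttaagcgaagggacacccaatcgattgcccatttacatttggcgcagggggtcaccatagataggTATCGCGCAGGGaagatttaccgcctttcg
xol-1 chrX:8036333-8036433: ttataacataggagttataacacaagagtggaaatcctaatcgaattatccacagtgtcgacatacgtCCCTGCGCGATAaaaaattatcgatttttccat
gtr-1 chrX:806652-806752: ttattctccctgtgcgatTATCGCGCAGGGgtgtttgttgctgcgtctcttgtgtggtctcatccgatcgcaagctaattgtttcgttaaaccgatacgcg
Y41G9A.17 chrX:2997089-2997189: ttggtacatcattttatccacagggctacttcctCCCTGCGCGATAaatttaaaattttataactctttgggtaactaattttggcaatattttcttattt
In the nspc-17 and F20B6.9 windows the word lies on the plus strand, and in the cest-16 and gtr-1 windows it lies on the minus strand.

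The last 2 windows are shown because they are the strongest X peaks whose window overlaps a tRNA gene, and capitals mark the part of the window inside that gene. RefSeq lists F38G1.t2 as a tRNA-Asp gene on the minus strand at chrX:489868-489939, and C02B4.t2 as a tRNA-Tyr gene on the plus strand at chrX:12665228-12665311.
F38G1.t2 chrX:489833-489933: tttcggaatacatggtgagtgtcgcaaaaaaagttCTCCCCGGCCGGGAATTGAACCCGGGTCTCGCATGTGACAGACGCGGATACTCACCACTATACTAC
C02B4.t2 chrX:12665181-12665281: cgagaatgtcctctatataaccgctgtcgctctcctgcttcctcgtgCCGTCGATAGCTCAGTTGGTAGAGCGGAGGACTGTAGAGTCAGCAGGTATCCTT
The F38G1.t2 window holds CATGTG inside the tRNA gene itself.

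Peaks were denser on X than on the autosomes as a whole, at 23.6 peaks per Mb against 18.7 per Mb, and single autosomes ranged from 12.1 to 25.6 per Mb. X held 21.3% of all peaks and makes up 17.7% of the genome (exact binomial test, two-sided, p = 3.31e-05). Relative to gene number the difference was wider. X held 15.3 peaks per 100 protein-coding genes and the autosomes together 8.94, and this was not computed for single autosomes. X has 154 protein-coding genes per Mb against 209 per Mb on the autosomes. The X share of all peaks also exceeded the X share of protein-coding genes, which is 13.7% (exact binomial test, two-sided, p = 1.98e-20). That comparison was added after seeing the data. In a comparison also added after seeing the data, the difference relative to intergenic sequence was small. X held 23.2% of the 1143 intergenic summits (exact 95% interval 20.8 to 25.7%) and 21.5% of intergenic bases (exact binomial test, two-sided, p = 0.160), or 35.6 intergenic peaks per intergenic Mb on X against 32.2 on the autosomes. Intervals and p-values over peaks cover counting only, since peaks share libraries and are not replicates of a condition.

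The X share was 21.7% among the stronger 979 peaks of the optimal list and 21.0% among the weaker 980. Peaks were also called on 1 replicate alone, and of each such list as many peaks were taken, from the top by signal, as the optimal list holds. The X share was 20.5% in these top peaks of replicate 1 and 20.7% in those of replicate 2. It was lower in the complete lists, at 19.2% in replicate 1, 18.8% in replicate 2 and 19.2% in the pooled list, and X makes up 17.7% of the genome. Among the 100 strongest peaks X held 16, a share of 16.0% with an exact 95% interval of 9.43 to 24.7%.

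Along X, no concentration of peaks in the centre was detected. The central 50% of the chromosome held 207 of the 418 peaks, or 49.5% (exact 95% interval 44.6 to 54.4%; exact binomial test, two-sided, p = 0.883), and 52.9% of the protein-coding starts of X. Across 20 bins of 886 kb the count ran from 13 to 31 peaks with a median of 21.0. The bin with 31 peaks lay between 75 and 80% of the length of X and held 34 tRNA genes, with 7 of its peaks within 500 bp of one. The bin between 45 and 50% held 42 tRNA genes and 27 peaks, and its neighbour between 50 and 55% held 28 tRNA genes and 13 peaks, the lowest count on X.

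**Figure D1:**
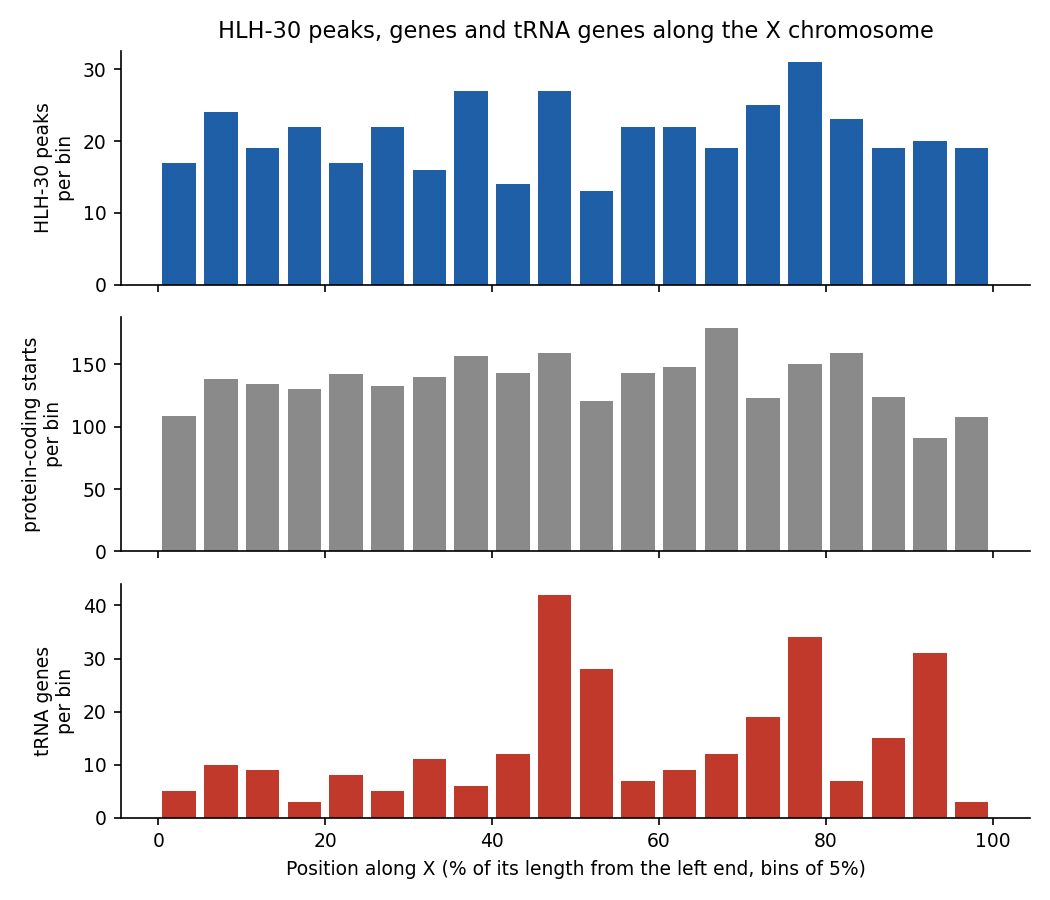
Counts of HLH-30 peaks (top), protein-coding starts (middle) and tRNA genes (bottom) in 20 bins along X, by position as percent of its length from the left end. Peaks per bin lie between 13 and 31 all along the chromosome, while tRNA genes are concentrated in a few bins, with 42 in the fullest.

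The signal is the authors' own value for each peak, and it is used here only to describe and rank peaks within a list. Its median was 73.4 for X peaks and 72.5 for autosomal peaks. Above the list's median of 72.7 lay 50.7% of X peaks and 49.8% of autosomal peaks (Fisher's exact test, two-sided, adjusted p = 0.741; difference 0.945 percentage points, odds ratio 1.04 with an exact 95% interval of 0.832 to 1.30). The X values ran from 47.8 to 744, and the weakest peak of the whole list had 47.7. All Fisher tests between X and autosomal peaks form 1 family of 23 with Benjamini-Hochberg adjustment. In it 12 passed at an adjusted p under 0.05, of which 5 were higher on X and 7 lower.

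The optimal list holds 1 value per peak from both replicates together, so each X peak was looked up in the replicate lists by a summit within 100 bp. Of the 418 X peaks, 334 (79.9%) were among the top peaks of replicate 1, against 78.4% of autosomal peaks, and 363 (86.8%) among those of replicate 2, against 87.7% of autosomal peaks (Fisher's exact tests, adjusted p = 0.626 and 0.676). Both replicates placed 286 X peaks (68.4%) among their top peaks, and 7 were in neither. In the complete replicate lists 21 X peaks had no summit in replicate 1 and 1 had none in replicate 2, which has 30000 entries against 11695 in replicate 1. Over the 396 X peaks found in both, the signals had a Spearman rho of 0.648 and a Pearson r of 0.772 on log2 values, and over 1473 autosomal peaks the rho was 0.664 and the r 0.803. These correlations are descriptions across peaks of 2 libraries.

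**Figure D2:**
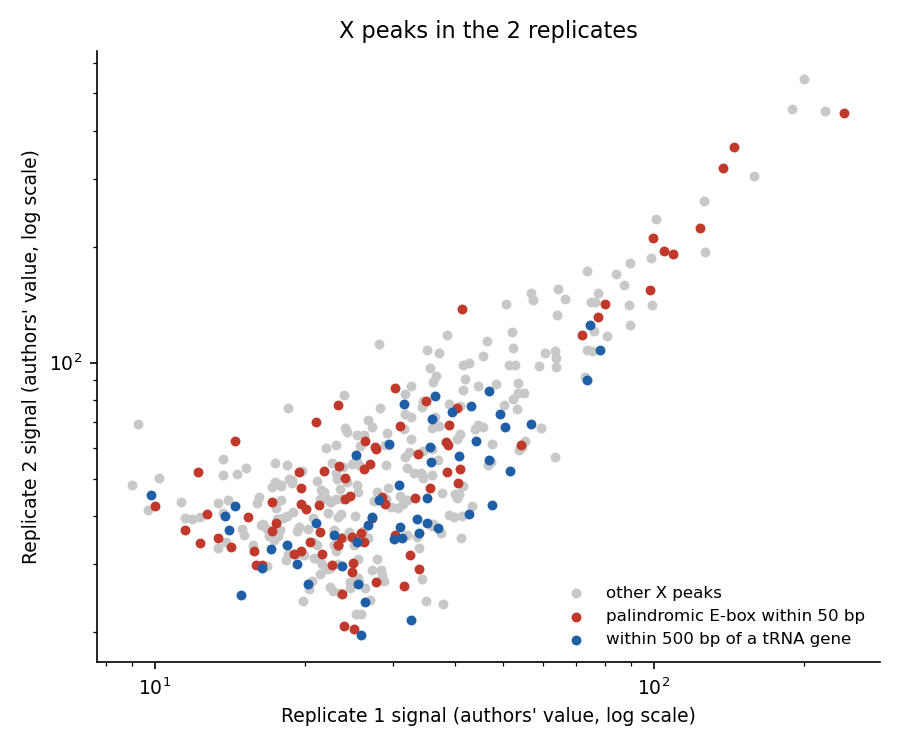
Signal of the 396 X peaks found in both replicate lists, replicate 1 on the horizontal and replicate 2 on the vertical axis, both on a log scale. Red points have CACGTG within 50 bp of the summit, blue points lie within 500 bp of a tRNA gene, and the grey points are the remaining X peaks. No blue point is among the 20 strongest X peaks.

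The starts nearest to the strongest X peaks, some of them beyond 2000 bp, belonged to genes of several functions. Genes of autophagy and mitophagy were among the first. The peak with the highest signal, 744, lay 2625 bp upstream of dct-1, the worm homolog of the mitophagy receptor BNIP3, at chrX:7951541-7951984. Its signal was 200.1 in replicate 1 and 546 in replicate 2, ranks 15 and 5 of those lists. The next, at chrX:7334386-7334727, lay 143 bp upstream of epg-7, which encodes a scaffold protein of the autophagosome-forming machinery related to Atg11 and FIP200. Its signal was 686 in the optimal list, 241 in replicate 1 and 444 in replicate 2. Further down, C36E6.2, annotated by RefSeq as a protein with an Nbr1 FW domain, had a peak of signal 308 with a summit 80 bp upstream of its start. Both dct-1 and epg-7 ranked within the 15 highest of both replicates.

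C30E1.4, which RefSeq names SID1 transmembrane family member 1, was the nearest start to a peak of signal 669 that lay 5856 bp away, between 2 convergent genes. C18B12.4, a RING-domain protein, had a peak of signal 643 at 316 bp upstream of its start. F09A5.3, an uncharacterized protein, was the nearest start to an intron summit of signal 505. epn-1, which encodes epsin, an adaptor of clathrin-mediated endocytosis, followed with 471 at 464 bp upstream, and C33A11.2, with an amino acid transporter domain, with 460.5 at 535 bp upstream. These 5 peaks ranked within the 45 highest of replicate 1 and within the 27 highest of replicate 2.

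The remaining peaks among the 20 strongest had signals between 248 and 388. They lay nearest to zfp-3, a zinc finger protein, R11G1.2, oga-1, the enzyme that removes O-GlcNAc from proteins, pigx-1, of glycosylphosphatidylinositol anchor synthesis, acl-4, an acyltransferase of lipid synthesis, bet-2, a bromodomain protein, ipla-2, a phospholipase A2, eor-2, ain-1, a GW182-family partner of microRNA Argonautes, nhr-32, a nuclear hormone receptor, bra-1, and tps-1, a trehalose-phosphate synthase. Of the 20, 17 were intergenic, 2 in exons of noncoding genes and 1 in an intron. Their summits were upstream of the nearest start in 17 cases, less than 500 bp from it in 11 and beyond 2000 bp in 5. CACGTG was within 50 bp of the summit in 8 and CATGTG in 4. All but the ain-1 peak were among the top peaks of both replicates. The ain-1 peak, of signal 258, had 199.5 in replicate 2 and no summit within 100 bp in replicate 1, and its row overlaps a second, separately listed summit 209 bp away.

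X summits lay farther from protein-coding starts than autosomal ones. The median distance was 822 bp on X and 594 bp on the autosomes. A start was no more than 500 bp away for 161 of 418 X summits (38.5%, exact 95% interval 33.8 to 43.4%), against 731 of 1541 autosomal summits (47.4%, 44.9 to 49.97%), an odds ratio of 0.694 with a 95% interval of 0.553 to 0.871 (Fisher's exact test, adjusted p = 0.00595). Starts are sparser on X: 18.8% of X bases and 24.0% of autosomal bases lie within 500 bp of one, so the share of peaks exceeded that of bases 2.05 times on X and 1.98 times on the autosomes. Without the summits close to tRNA genes the shares were 41.8% on X and 47.9% on the autosomes and the difference did not pass (exact test, adjusted p = 0.0896), in an alternative chosen after seeing the data.

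The difference was in the closest and the far distances. Within 200 bp of a start lay 17.0% of X summits and 24.9% of autosomal ones, and between 2001 and 5000 bp lay 22.2% of X summits and 15.3% of autosomal ones. Beyond 2000 bp were 120 X summits (28.7%) against 317 autosomal summits (20.6%). Upstream of the nearest start were 73.4% of X summits and 73.2% of autosomal summits. The X summits farthest from any protein-coding start were nearest to C41A3.2, at 15186 bp with signal 144, T24D5.1, at 10958 bp with 85.6, and W05H9.4, at 9186 bp with 56.0. In all, 359 different genes were the nearest start of an X summit.

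**Figure D3:**
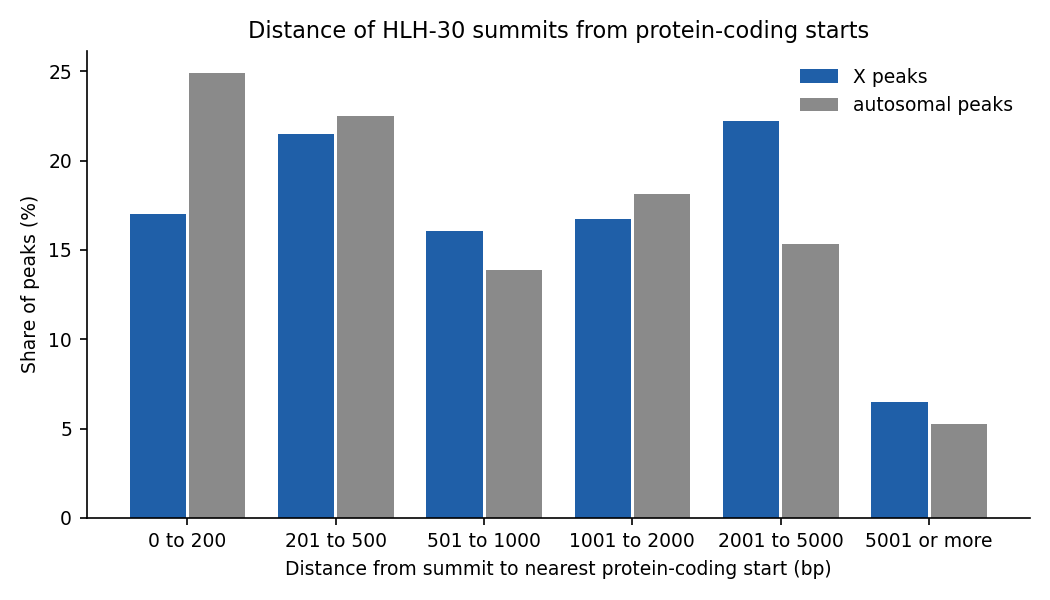
Share of X peaks (blue) and autosomal peaks (grey) in 6 classes of distance, in bp, from the summit to the nearest protein-coding start. X peaks have the smaller share within 200 bp, 17.0% against 24.9%, and the larger share between 2001 and 5000 bp, 22.2% against 15.3%.

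More X summits than autosomal summits were intergenic, and fewer lay in coding sequence. Intergenic were 265 of 418 X summits (63.4%) and 57.0% of autosomal summits (exact test, adjusted p = 0.0361), where intergenic bases make up 42.0% of X and 33.0% of the autosomes. Coding exons held 11 X summits (2.63%, exact 95% interval 1.32 to 4.66%), against 6.81% of autosomal summits (5.61 to 8.19%, adjusted p = 0.00595), with 19.97% of X bases and 25.6% of autosomal bases in coding exons. In 5′ UTRs were 7 X summits, 1.67% against 4.09% of autosomal summits (exact test, adjusted p = 0.0353). The 5′ UTR difference did not pass in replicate 1 alone (1.99% against 3.79%, exact adjusted p = 0.145), in replicate 2 alone (2.46% against 4.19%, adjusted p = 0.157) or without the summits near tRNA genes (1.65% against 4.17%, adjusted p = 0.0556). Introns held 74 (17.7% against 20.5%, exact adjusted p = 0.308), exons of noncoding genes, a class that includes tRNA genes, pseudogenes and other noncoding RNAs, 59 (14.1% against 10.6%, adjusted p = 0.0807), and 3′ UTRs 2 (0.478% against 1.04%, adjusted p = 0.476). With replicate 1 alone the intergenic shares were 60.7% on X and 59.99% on the autosomes and the coding exon shares 3.73% and 4.95%, and neither difference passed (exact test, adjusted p = 0.860 and 0.459).

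The few X summits in coding sequence were mostly E-box summits. CACGTG was within 50 bp of 8 of the 11 (72.7%, exact 95% interval 39.0 to 94.0%), against 70 of 105 autosomal coding-exon summits (66.7%). In exons of noncoding genes it was at 3 of 59 X summits (5.08%) and 7.98% of autosomal ones, in introns at 28.4% of X and 26.9% of autosomal summits, and in intergenic sequence at 20% of X and 17.7% of autosomal summits. The strongest coding-exon peaks with the palindrome were nearest to adt-2, a secreted metalloprotease of the ADAMTS family, with signal 82.5, and rgs-7, a regulator of G protein signalling, with 73.9. Both 3′ UTR summits, nearest to suox-1 (signal 61.6) and nucb-1 (52.8), also held it. In 5′ UTRs the strongest were nearest to K10B3.5, with 181, C28G1.2, with 111, and alg-1, an Argonaute of the microRNA pathway, with 67.3. In introns mob-2, with 205, and unk-1, with 197, followed F09A5.3, and in exons of noncoding genes dpy-23, with 239, followed dct-1 and C18B12.4.

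Intergenic X summits were less often between divergent genes, which are transcribed away from each other, and more often between convergent ones. Divergent intervals held 108 of 265 intergenic X summits (40.8%), against 51.4% of autosomal ones (exact test, adjusted p = 0.00845), with 37.1% of the intergenic bases of X and 34.5% of those of the autosomes. Convergent intervals, which touch no protein-coding start, held 19 X summits (7.17%) against 3.08% of autosomal ones (exact test, adjusted p = 0.0165), with 8.77% of intergenic bases on X and 11.0% on the autosomes. Tandem intervals held 52.1% of X and 45.6% of autosomal intergenic summits (exact test, adjusted p = 0.104). The intergenic intervals that held summits were longer on X, with a median of 3938 bp against 2009 bp on the autosomes. The length of all intergenic intervals was not computed, and X has fewer protein-coding genes per Mb (154 against 209). Among the stronger 979 peaks of the list the divergent share was 43.5% on X against 49.0% on the autosomes (exact test, adjusted p = 0.400), and without the summits near tRNA genes the convergent share was 5.69% on X against 2.87% on the autosomes (adjusted p = 0.0981).

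**Figure D4:**
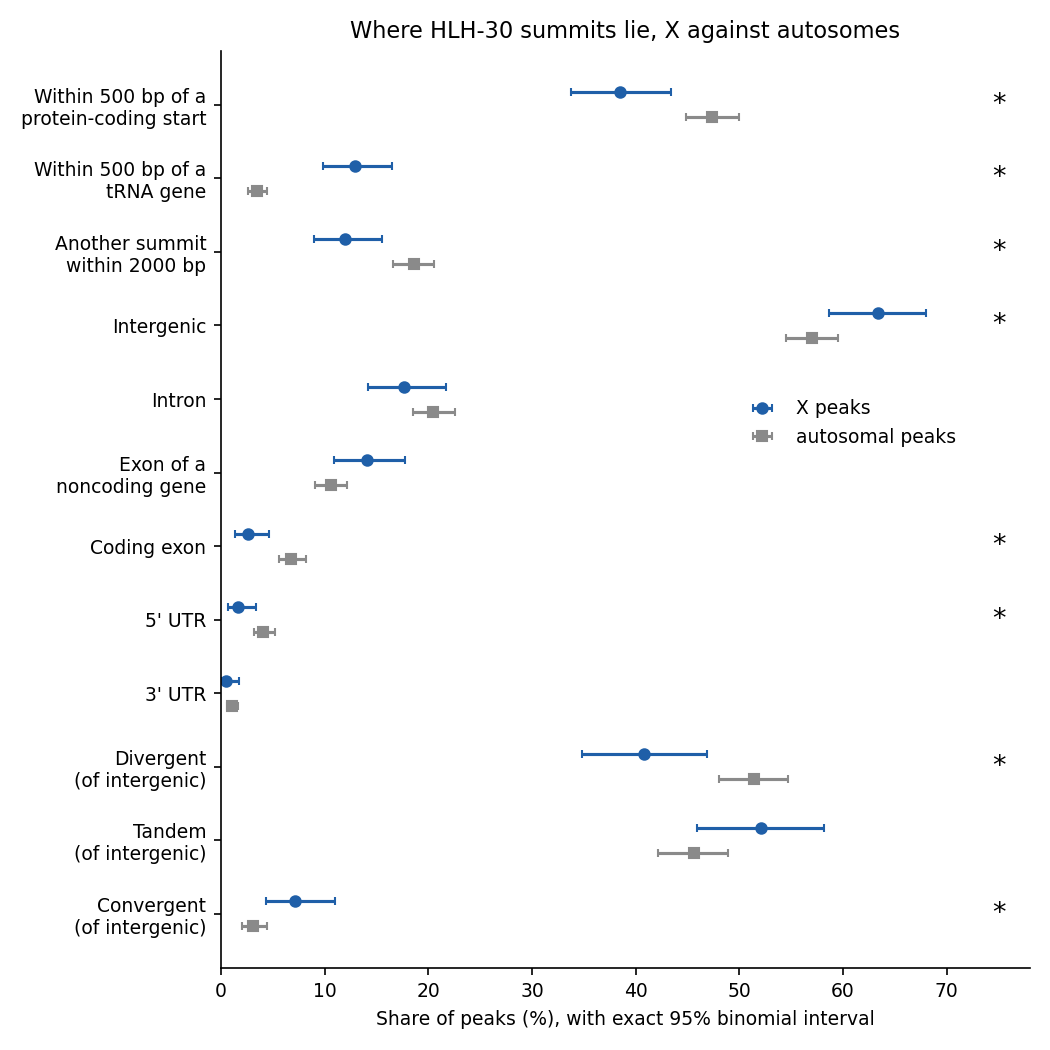
Share of X peaks (blue circles) and autosomal peaks (grey squares) by position class, in percent, with exact 95% binomial intervals. An asterisk marks an adjusted p under 0.05 in Fisher's exact test, and the last 3 classes are shares of the intergenic summits. The tRNA class has the widest relative difference, 12.9% against 3.44%.

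Among the position classes, summits close to tRNA genes had the odds ratio between X and autosomes farthest from 1. Within 500 bp of a tRNA gene lay 54 of 418 X summits (12.9%, exact 95% interval 9.86 to 16.5%), against 53 of 1541 autosomal summits (3.44%, 2.59 to 4.47%), an odds ratio of 4.16 with a 95% interval of 2.74 to 6.31 (Fisher's exact test, adjusted p = 2.14e-10). Of the 612 tRNA genes annotated on X and the autosomes, 276 (45.1%) are on X. Bases within 500 bp of a tRNA gene make up 1.38% of X and 0.398% of the autosomes, so the share of peaks exceeded that of bases 9.39 times on X and 8.65 times on the autosomes. Per tRNA gene, 65 of 276 on X had a summit within 500 bp (23.6%, exact 95% interval 18.7 to 29.0%), against 56 of 336 on the autosomes (16.7%, 12.8 to 21.1%). That comparison was added after seeing the data (Fisher's exact test, two-sided, unadjusted p = 0.0411), and tRNA genes near the same summit are not independent.

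Most of these summits were at the gene and not only near it: 50 of the 54 on X and 51 of the 53 on the autosomes were within 100 bp, and 25 on X and 26 on the autosomes lay inside a tRNA gene. Several isotypes were represented. On X, a summit was within 500 bp of 8 of 20 tRNA-Gly genes, 8 of 20 tRNA-Pro genes, 7 of 23 tRNA-Glu genes and 5 of 12 tRNA-Asp genes, against 2 of 35, 2 of 22, 1 of 18 and 9 of 15 of these isotypes on the autosomes. Several other isotypes on X had lower shares, among them 4 of 27 tRNA-Arg genes, 2 of 18 tRNA-Lys genes, 0 of 7 tRNA-Cys genes and 0 of 5 tRNA-Trp genes. These isotypes were picked after their counts were seen, and differences between isotypes were not tested. The strongest X peaks of this class were at F38G1.t2 (signal 201), C02B4.t2 (186) and T14F9.t1, a tRNA-Asp gene (163). Their median signal was 71.0, and none was among the 20 strongest X peaks. Only 1 of the 54 had CACGTG within 50 bp, against 87 of the 364 X summits away from tRNA genes (23.9%). CATGTG was at 20 of the 54 (37.0%), and in 10 of those 20 it lay inside a tRNA gene. The autosomal summits near tRNA genes had CACGTG at 3 and CATGTG at 15 of 53, with 9 of the 15 inside the gene. What part transcription of the tRNA genes has in these peaks was not tested.

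Among the E-boxes, CATGTG was more frequent at X summits than at autosomal ones, and no difference was detected for CACGTG. The windows reached 50 bp to either side of each summit and were searched on both strands, with windows of the same length 500 bp to either side as flanks. CACGTG was at 88 X summits (21.1%), in 2.51% of X flanks and in 1.32% of all windows of this length on X (exact sign test of summits against their flanks, two-sided, adjusted p = 1.79e-16), against 22.1% of autosomal summits (adjusted p = 0.720 between X and autosomes, odds ratio 0.942, 95% interval 0.714 to 1.23). On the autosomes CACGTG was in 2.11% of flanks and 1.74% of all windows. CATGTG was at 91 X summits (21.8%) and in 3.11% of X flanks, against 15.8% of autosomal summits (exact test, adjusted p = 0.0153, odds ratio 1.48, 95% interval 1.12 to 1.95), with 3.56% of all windows on X and 3.05% on the autosomes. The CATGTG difference did not pass in replicate 1 alone (18.2% against 13.7%, exact adjusted p = 0.0556), in replicate 2 alone (22.2% against 17.9%, adjusted p = 0.0873) or without the summits near tRNA genes (19.5% against 15.4%, adjusted p = 0.130). Either E-box was at 170 X summits (40.7%) and 36.3% of autosomal ones.

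The 88 X summits with CACGTG had signals from 47.8 to 686 with a median of 67.4, against 74.3 for the 330 X summits without it. Another E-box, CAGCTG, was at 3.59% of X summits and 1.08% of X flanks, against 5.97% of autosomal summits (exact test, adjusted p = 0.104). The 3 E-boxes differ in their central letters and cannot share a match. GAGAGA was at 28.0% of X summits and 5.02% of X flanks, against 30.6% of autosomal summits (exact test, adjusted p = 0.454), and CACACA at 19.4% and 5.02%, against 17.5% of autosomal summits (adjusted p = 0.476). None of the 8 words searched was at 84 X summits (20.1%), against 21.2% of autosomal summits. GC content averaged 49.3% in X summit windows and 48.4% in autosomal ones, with 34.5% in X flanks and 36.0% in autosomal flanks.

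A pair of words that often form 1 stretch, ACGCAG and the reverse complement of CGTCTC, was rarer at X summits than at autosomal ones. ACGCAG was at 60 X summits (14.4%, 2.87% of X flanks), against 22.2% of autosomal summits (exact test, adjusted p = 0.00426, odds ratio 0.588, 95% interval 0.428 to 0.797). CGTCTC was at 71 (17.0%, 4.07% of X flanks), against 24.3% of autosomal summits (exact test, adjusted p = 0.00595). Of all windows, ACGCAG was in 1.77% on X and 1.94% on the autosomes, and CGTCTC in 2.39% and 2.79%. In autosomal flanks the shares were 2.34% for ACGCAG and 3.73% for CGTCTC. The combined stretch GAGACGCAGA, the word of 10 letters found at the greatest number of X summits and so chosen from these values, was at 26 X summits (6.22%) and 173 autosomal summits (11.2%). It is itself rarer on X, with 206 matches (11.6 per Mb) against 3132 on the autosomes (37.9 per Mb). A summit lay within 50 bp of 27 of the X matches (13.1%) and of 189 of the autosomal matches (6.03%).

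The core of the MEX motif, GCGCAGG, was at 12 X summits (2.87%, exact 95% interval 1.49 to 4.96%), in 0.359% of X flanks and in 0.184% of all windows of X (exact sign test against flanks, adjusted p = 0.00725). It was at 16 autosomal summits (1.04%, 0.595 to 1.68%) and in 0.187% of autosomal windows (exact test, adjusted p = 0.0212 between X and autosomes, odds ratio 2.82, 95% interval 1.21 to 6.40). In windows of 25 bp to either side the shares were 1.44% on X and 0.779% on the autosomes, and the difference did not pass (exact test, adjusted p = 0.312). These 12 X peaks had signals between 56.1 and 158 in the optimal list. None held CACGTG, 9 were intergenic, 2 had a protein-coding start at 500 bp or less and 6 had none within 2000 bp. They were nearest to nspc-17, F20B6.9, R04E5.9, cest-16, xol-1, gtr-1, F22H10.2, sli-1, Y41G9A.17, W02H3.3, ins-39 and Y15E3A.5. xol-1 is the switch gene of sex determination and dosage compensation, and its peak, of signal 109.7 at chrX:8036327-8036425, lay 4930 bp upstream of its start and 302 bp from a tRNA gene.

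Of these 12 summits, 6 held CCCTGCGCGATA, the word printed in capitals above, which 0 autosomal summits held. It was picked after the windows had been read, so no test is given. Among words of 12 letters found at 0 autosomal summits, it is the one at the greatest number of X summits. It occurs 9 times on X and 0 times on the autosomes. An optimal summit lay within 100 bp of 7 of the 9 matches, and the same 7 had a summit in replicate 1 and in replicate 2. Their signals in replicate 1 and replicate 2 were 59.0 and 98.2 near nspc-17, 54.9 and 83.2 near F20B6.9, 40.5 and 76.9 near cest-16, 36.0 and 71.3 near xol-1, 40.4 and 63.5 near gtr-1, 41.4 and 47.9 near Y41G9A.17, and 39.8 and 39.7 near W02H3.3. Of the other 2 matches, one lay 165 bp from the Y41G9A.17 summit, and the other, nearest to col-185, had only a weak replicate 2 summit of signal 8.66. Whether the dosage compensation complex occupied these sites in these embryos was not measured, and its part in the peaks was not tested.

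Across all hexamers, each merged with its reverse complement, 4 differed between X and autosomal summits, and all 4 were more frequent on X, which is 0.192% of those tested (Fisher's exact tests adjusted over all hexamers). TAGGCA was at 4.78% of X summits against 1.23% of autosomal summits (exact test, adjusted p = 0.0372), AGGCAG at 8.37% against 3.31% (0.0372), CTTTCC at 11.2% against 5.45% (0.0492) and CATGCA at 8.85% against 3.83% (0.0492). In X and autosomal flanks the shares were 2.15 and 3.50% for TAGGCA and 1.91 and 2.37% for AGGCAG. They were 4.43 and 5.22% for CTTTCC and 3.95 and 3.08% for CATGCA. The TAGGCA share was thus lower at autosomal summits than in autosomal flanks. TAGGCA and AGGCAG overlap in their letters, and 197 hexamers had an unadjusted p under 0.05. Without the summits near tRNA genes no hexamer passed, while the shares were 4.40% against 1.21% for TAGGCA and 8.52% against 3.36% for AGGCAG.

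X summits were less often close neighbours of another summit. Another summit lay within 2000 bp of 50 X summits (11.96%, exact 95% interval 9.01 to 15.5%), against 286 autosomal summits (18.6%, 16.6 to 20.6%, adjusted p = 0.00595). The difference did not pass at 1000 bp (5.74% against 8.18%, exact adjusted p = 0.183) or at 5000 bp (30.4% against 32.1%, adjusted p = 0.637). The median gap between neighbouring summits was 25.04 kb on X and 29.5 kb on the autosomes, and X gaps ran from 199 bp to 261 kb. Summits with gaps of at most 2000 bp formed 21 groups on X, 3 of them of 3 or more summits, against 124 and 30 on the autosomes.

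The largest such group in the whole list was on X, at mdl-1, with 8 summits over 8318 bp, where no autosomal group had more than 5. The first 2 of the 8 were nearer to the start of R03E9.2, at 2415 and 4348 bp, and the other 6 nearest to mdl-1. mdl-1 encodes a Mad-like basic helix-loop-helix leucine zipper factor, which dimerizes with MXL-1 in worms and, like HLH-30, belongs to a family that binds E-boxes. The summits ran from 6635 bp upstream of its start at chrX:6742351, their signals in order being 52.1, 107, 49.5, 105, 88.6, 181, 116 and 183. The last 4 of these, between 609 bp upstream and 1683 bp downstream of the start, all had CACGTG within 50 bp, and the first 4 had none. The summit 103 bp upstream had a signal of 41.3 in replicate 1 and 138 in replicate 2, and that 1683 bp downstream had 71.7 and 118. All 8 had a summit in both replicate lists, and their lowest values were 15.7 in replicate 1 and 31.9 in replicate 2.

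**Figure D5:**
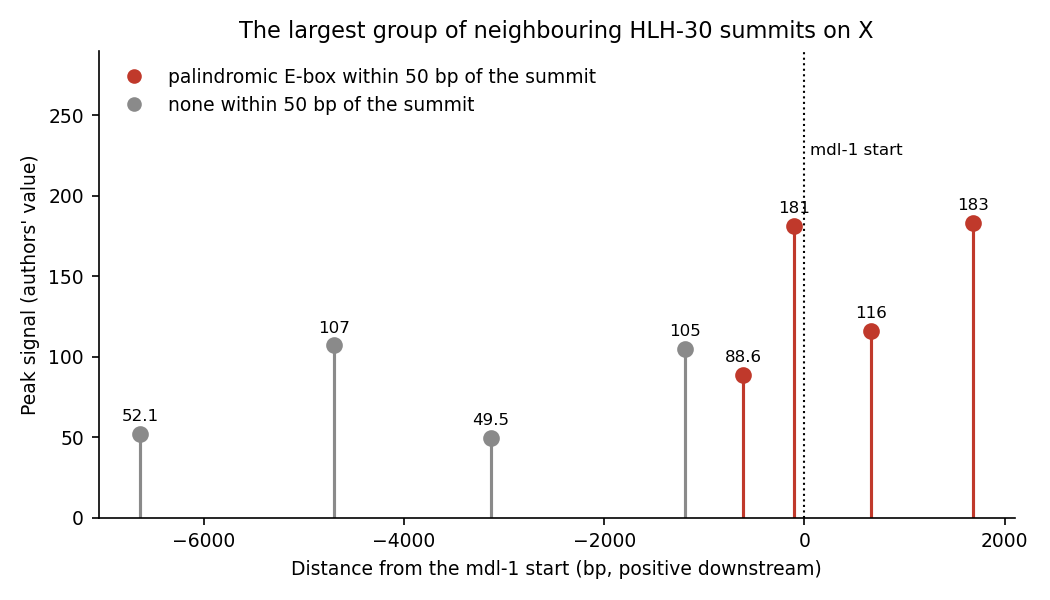
Signal (authors' value) of the 8 summits at mdl-1 in the optimal list against their distance in bp from its annotated start, marked by the dotted line. Red marks summits with CACGTG within 50 bp and grey those without. The 4 red summits lie nearest the start or downstream of it, and the 2 highest have 181 and 183.

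The next groups had 3 summits each. One lay in introns of lin-14, a transcriptional regulator of larval timing, with signals of 87.4, 49.9 and 59.0, and all 3 summits had CATGTG. The other lay between 2905 bp downstream and 221 bp upstream of the M163.1 start, with 62.5, 67.5 and 48.0. Of those 3, the 67.5 and 48.0 summits had CATGTG.

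Genes were counted as having a peak if the stretch between 1000 bp before and 200 bp after one of their starts held a summit. A gene without a summit in that window can still be the nearest start of a peak. On X this was so for 224 of 2731 protein-coding genes (8.20%, exact 95% interval 7.20 to 9.29%), against 1100 of 17242 on the autosomes (6.38%, 6.02 to 6.75%), an odds ratio of 1.31 with a 95% interval of 1.12 to 1.52 (Fisher's exact test, two-sided, p = 0.000503). With replicate 1 alone the shares were 7.47% on X and 6.85% on the autosomes (exact test, p = 0.240). The 224 genes drew on 205 peaks, 18 of which served 2 or more genes. The gene lists that follow were chosen with earlier results of these data known, and their counts are given as a description against those 2 shares.

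In the autophagy list 2 of 3 X genes had a peak, against 13 of 27 autosomal ones. These were epg-7 and atg-16.1, a subunit of the complex that attaches LGG-1 to membranes, with a signal of 83.8 at 106 bp from its start. The other, atg-2, which encodes a lipid-transfer protein of autophagosome growth, had no summit in the window but was the nearest start of 3 X summits, with signals of 103, 58.6 and 49.0. Of the vacuolar ATPase, the lysosomal proton pump, 2 of 3 X genes, vha-12 (73.4) and vha-15 (54.1), had one, against 3 of 19 autosomal genes. Of the kinases and regulators of TORC1 and AMPK, 2 of 5 X genes had one, against 6 of 18. These were aak-2, a catalytic subunit of AMPK (75.01), and aakg-4, a regulatory subunit (73.3). A stronger aak-2 summit, of signal 162, lay outside the window, in an intron 927 bp downstream of the nearest start. aakg-3 had no summit in the window but was the nearest start of summits of signal 99.9, with CACGTG, and 60.6. aakb-1 was likewise the nearest start of a summit outside the window (17.3 in replicate 1, 34.7 in replicate 2). In the insulin pathway list the X gene with a peak was akt-2, a kinase downstream of the insulin receptor (68.5), 1 of 4 X genes against 1 of 11 autosomal ones.

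Membrane traffic genes had peaks at 6 of 11 X members, against 8 of 35 autosomal members. Beside epn-1 these were dpy-23 (239), apa-2 (78.8) and aps-2 (53.9), which encode subunits of the AP-2 clathrin adaptor, rab-14, a small GTPase (164), and snx-1, a sorting nexin (73.1). Of the nuclear hormone receptors 5 of 27 X genes had a peak, against 10 of 247 autosomal ones. They were nhr-32 (255), nhr-35 (216), nhr-48 (139), nhr-1 (129) and nhr-255 (77.3), with CACGTG at nhr-32 alone, and the nhr-255 summit lies 30 bp from the tRNA-Leu gene ZK678.t1. Of 10 signalling genes on X 3 had one, against 2 of 43. These were egl-17, a fibroblast growth factor (201), sem-5, the adaptor related to Grb2 (58.8), and daf-3, a SMAD factor (52.8). The egl-17 peak is the one inside the tRNA-Asp gene F38G1.t2.

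Lists of differentiated tissues had between 0 and 2 X members with a peak, where 8.20% of all X genes and 6.38% of all autosomal genes had one. It was 0 of 12 for intestinal genes (0 of 14 autosomal) and 0 of 34 for chemoreceptors (7 of 1203). For neuronal genes it was 1 of 17 (3 of 41), syd-2, a synaptic scaffold (89.0). For muscle genes it was 2 of 13, or 15.4% (4 of 36), act-4, an actin (67.1), and sup-12, a splicing factor (50.8). For epidermal and cuticle genes it was 2 of 32, or 6.25% (2 of 153, or 1.31%), col-185, a collagen (65.8), and ajm-1, an apical junction protein (61.1). The col-185 summit lies inside the tRNA-Pro gene H06A10.t1. Members of these lists without a summit in the window were also nearest starts. The chemoreceptor gene sra-37 was so for a summit with CACGTG (32.5 in replicate 1, 31.7 in replicate 2) and for another (22.5 and 26.2). srd-43 was so for a summit of signal 99.3 inside a tRNA gene. The neuronal gene cat-1 (78.8) and col-181 (114) were so for summits 23 and 8 bp from a tRNA gene. The muscle gene unc-97 was so for a summit of 19.6 in replicate 1 and 31.9 in replicate 2. Of 28 homeobox genes on X 1 had a peak (4 of 67 on the autosomes), ceh-39 (62.6). ceh-39, an X signal element that represses xol-1, was also the 1 of 6 X genes in the list of sex determination and dosage compensation (4 of 15), while sdc-2, sex-1, fox-1 and xol-1 itself had no summit in the window. Outside the window, sex-1 was the nearest start of a summit with CACGTG (33.9 in replicate 1, 29.2 in replicate 2). fox-1 was the nearest start of another summit (16.04 in replicate 1, 43.2 in replicate 2). Of 10 basic helix-loop-helix genes on X, mdl-1 alone had a summit in the window (2 of 30). mxl-3 had none there but was the nearest start of a summit with CACGTG (19.01 in replicate 1, 31.97 in replicate 2). A summit with CACGTG and a signal of 227 lay between mxl-3 and C49F8.15, nearest to the C49F8.15 start. lin-32 was the nearest start of the summit inside the tRNA-Asp gene T14F9.t1. Of 2 ribosomal protein genes on X, rpl-11.2 had a peak (79.1), against 40 of 76 on the autosomes.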

How the data were processed

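The members, gene lists and tests were chosen with earlier results of these data known. Per the descriptions deposited with the files, peaks were called against a control for each replicate and for both replicates pooled, and the optimal list was thresholded by IDR. For the aligner, the caller and the IDR cutoff, names and versions were not given in the sources used here. Read depth is unknown. The deposited signal is the authors' value per peak on an unstated scale. The signal column was used to rank and describe peaks, and the p and q columns were not used. Lists on ce11 were analysed, and the ce10 optimal list served for the X share alone.

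Summits were placed on Ensembl release 115 (WBcel235) and the RefSeq sequence of the same assembly. A region class was given in the order coding exon, 5′ UTR, 3′ UTR, noncoding exon, intron, intergenic, and starts were those of protein-coding transcripts. Motif windows reached 50 bp to either side, with flanks centred 500 bp away. Fisher's exact, exact binomial and exact sign tests, all two-sided, were run in Python 3.11.15 with scipy 1.17.1 and numpy 2.4.6. Figures were drawn with matplotlib 3.10.9. The hexamer test was checked on simulated data. Of the listed gene symbols, 1 (elt-5) matched no annotated gene. Genes named are nearest to the 20 strongest X peaks, the 6 strongest with CACGTG, the 3 strongest of each region class, the 3 farthest from a start, the 3 largest groups, and up to 4 members of each of 16 gene lists. Members beyond those 4, the other peaks with GCGCAGG, the longer words and tRNA isotypes were picked after their values were seen. List genes named for a summit outside the window were also picked in that way. Alternatives were each replicate alone, the stronger 979 peaks, other distances and windows, intergenic summits alone, and, added after seeing the data, leaving out summits near tRNA genes and other denominators for the X share.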

Additional observations from a re-analysis of the deposited data

Results flagged for a closer look

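X peaks just below the threshold of the optimal list were checked for CACGTG and for nearness to tRNA genes. Above, they entered only the X share of the complete pooled list. Of the 375 X peaks at ranks 1960 to 3918 of the pooled list, 22.4% had CACGTG within 50 bp (exact 95% interval 18.3 to 27.0%), against 1.20% of their flanks (exact sign test, two-sided, p = 2.74e-21). Within 500 bp of a tRNA gene lay 5.60% of them (exact 95% interval 3.50 to 8.43%), against 2.08% of the 1584 autosomal peaks at the same ranks, and 12.9% of the listed X peaks (9.86 to 16.5%).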

How the results depend on the processing

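Of 188 alternatives over 35 results, 137 kept direction and side of the threshold, 29 lost the threshold, 4 gained it, 12 turned direction and 6 moved a count. Shares on X come before shares on the autosomes here, and the cause of each change was not tested. With the top peaks of 1 replicate alone, as many as in the optimal list (replicate 1, then replicate 2), the X share was 3.73 and 3.69% for coding exons, 1.99 and 2.46% for 5′ UTRs, 60.7 and 62.8% for intergenic summits, 13.7 and 13.5% for spacing, 18.2 and 22.2% for CATGTG, 2.49 and 2.71% for CAGCTG, and 7.47 and 7.43% for genes with a peak. Against their own flanks the CAGCTG summits had the same 2.49 and 2.71%, and that contrast lost the threshold with either replicate alone. Coding exons, intergenic summits and genes with a peak lost the threshold with replicate 1 alone, spacing with replicate 2 alone (exact test, adjusted p = 0.0513), and 5′ UTRs and CATGTG with either. CAGCTG gained it with replicate 2 alone (exact test, adjusted p = 0.0165). Results short of the threshold turned direction for CACGTG in replicate 1 (18.9 and 20.2% on X) and for GAGAGA (24.9 and 30.3%) and 3′ UTRs (0.995 and 0.985%) in replicate 2. Hexamers called numbered 7 with replicate 1 and 6 with replicate 2.

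Among the stronger 979 peaks the threshold was lost for coding exons (1.42% against 1.96%), intergenic summits (65.1% against 60.6%), divergent intervals (43.5% against 49.0%) and CATGTG (19.8% against 15.8%), and direction turned for tandem intervals (47.8% against 48.2%), signal (48.6% against 50.3%) and CACGTG (19.3% against 18.3%). CAGCTG at 4.72% of summits no longer passed against flanks, and 1 hexamer was called. Spacing lost the threshold at 1000 bp (5.74%) and 5000 bp (30.4%). Signal in the top 25% of the list turned direction (24.6% against 25.1%).

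With 25 bp to either side, CATGTG (13.6% against 10.1%) and GCGCAGG (1.44%, also against flanks) lost the threshold, CAGCTG (0.957% against 3.50%) and CACACA (12.7% against 8.89%) gained it, CAGCTG lost it against flanks (0.957%), and 0 hexamers were called. With 100 bp, CAGCTG passed between X and autosomes (5.98% against 9.54%) but not against flanks (5.98%), and 42 hexamers were called. In intergenic summits alone CATGTG (19.6% against 14.01%) and CGTCTC (19.2% against 25.2%) lost the threshold, CACGTG turned direction (20% against 17.7%) and 0 hexamers were called. Matching to the whole replicate lists turned direction for replicate 1 (94.98% against 95.8%) and replicate 2 (99.8% against 99.7%).

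Without summits near tRNA genes, chosen after seeing the data, the threshold was lost for nearness to a start (41.8% against 47.9%), 5′ UTRs (1.65% against 4.17%), convergent intervals (5.69% against 2.87%) and CATGTG (19.5% against 15.4%). Direction turned for noncoding exons (8.79% against 9.01%) and CACGTG (23.9% against 22.6%), and 0 hexamers were called. The X share of intergenic summits (23.2%) against that of intergenic bases did not pass, also chosen after seeing the data. No paired analysis was possible because there is a single group, and the comparisons are between chromosomes within the same lists. Depth is unknown, so a missing summit in replicate 1 is not evidence of no binding. The optimal list gives 1 pooled value per peak, with no spread between replicates.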
